A study of Mus musculus with 24 samples.

Results

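The mRNAs described here encode the subunits of the respiratory chain and the ATP synthase in NIH3T3 cells, an immortalised mouse fibroblast line. They were chosen by gene symbol among the protein-coding genes of the whole-cell count table, as the Ndufa, Ndufb, Ndufc, Ndufs and Ndufv genes, Sdha to Sdhd, the Uqcr genes, the Cox4 to Cox8 genes, the Atp5 genes and the protein genes of the mitochondrial genome, without the Ndufaf assembly factors. This rule gave 94 of 13534 genes, of which 81 are nuclear-encoded and 13 mitochondrially encoded. By symbol the nuclear-encoded genes were 38 of complex I, 4 of complex II, 8 of complex III, 13 of complex IV and 18 of complex V, and the mitochondrial ones were 7, 0, 1, 3 and 2. The symbol rule is broader than the complexes: Atp5s and Atp5sl stand in the RefSeq gene table as Dmac2l and Dmac2, Atp5l-ps1 carries a pseudogene name, and Ndufa4 is now usually counted with complex IV. The fraction table held 92 of the 94, without Ndufa4l2 and Atp5l-ps1.

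The respiratory chain is built from the products of both genomes. Nuclear-encoded subunits are translated in the cytosol and imported, whereas the core hydrophobic subunits are transcribed and translated inside the organelle, behind its membranes. Complex I (NADH dehydrogenase), complex III (cytochrome bc1) and complex IV (cytochrome c oxidase) pump protons, complex II (succinate dehydrogenase) feeds electrons from the TCA cycle, and complex V (ATP synthase) makes ATP. A miRNA binds its targets in the cytoplasm chiefly through its seed, the bases from position 2 to 8, and miR-29b is best known for mRNAs of collagens and other matrix proteins. The mature strand is shown because its seed is what the mimic offers to these mRNAs. It is given 5′ to 3′ from the RefSeq table of GRCm38.p6, with the seed in capitals.
mmu-miR-29b-3p: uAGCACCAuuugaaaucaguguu

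The series asked which RNAs a miR-29b mimic contacts. The mimics carried 3-cyanovinylcarbazole, a nucleoside that cross-links to the paired strand under light. Bound RNA can thus be recovered (the pulldown) and compared with the RNA before recovery (the input). For each of the miR-29b and scrambled mimics, whole cells gave 4 input and 4 pulldown libraries, and nuclear and cytoplasmic fractions gave 1 library for each of these 4 conditions. All cells of all groups, inputs included, had received a mimic at 10 nM, either miR-29b or a scrambled control sequence, with medium added after 24 h and 8 h more before harvest, so no group holds untransfected cells. Library preparation took 5 ng of RNA, with 6 ng for the fourth miR-29b input, and primed it with random hexamers and oligo-dT. The labels do not say that replicates came from separate cultures, so the p-values measure the spread between these libraries, which may be technical. The table headers call replicates 1 to 3 lysed and replicate 4 intact.

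Whole-cell libraries held 7409157 to 55153996 counts over the listed genes and fraction libraries 5320421 to 20142591. All 9 fibroblast markers fixed for the check were tested, with a summed level of 4484 to 7511 CPM in the inputs, where CPM is the count scaled by library size and by TMM factors, which align libraries on their typical genes. The leukocyte list (1 of 3 tested) reached 4.07 CPM, the epithelial list (1 of 4) 1.03 CPM, and the muscle list (3 of 7) 12.2 CPM, and 0 of 3 endothelial markers were tested. Replicate 1 of the whole-cell scrambled pulldown stood apart. Its counts differed from those of the cytoplasmic scrambled pulldown by no more than sampling noise (mean chi-square 1.05 over 10838 genes), whereas the next closest of all 276 pairs of libraries gave 8.07. These libraries were therefore not treated as independent, and counts of calls, and the members with the largest changes, are given with and without replicate 1 of the scrambled pulldown.

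Mitochondrially encoded mRNAs took a larger share of each miR-29b pulldown than of its same-numbered input. The same held for replicates 2 to 4 of the scrambled pulldown, but not for replicate 1, which matched the cytoplasmic scrambled pulldown. No test was run on these shares. The mitochondrially encoded mRNAs took 6.22%, 6.80%, 6.23% and 5.05% of the listed counts in miR-29b inputs 1 to 4. In scrambled inputs 1 to 4 they took 5.84%, 6.49%, 6.05% and 4.58%. In the miR-29b pulldowns they took 13.4%, 7.46%, 10.5% and 6.11% in replicates 1 to 4. In the scrambled pulldowns they took 2.78%, 10.7%, 9.37% and 9.05%. Both mimics thus gave libraries above the inputs, and replicate 1 was the highest library with miR-29b and the lowest with the scrambled mimic. The nuclear-encoded mRNAs together took a smaller share, 1.08% to 1.33% of the inputs, 0.969% to 1.42% of the miR-29b pulldowns and 0.807% to 1.21% of the scrambled pulldowns. Shares of a total move with every other gene in it, and in such bulk samples fewer cells holding an RNA and less of it per cell cannot be told apart. Per authors' library total, which also counts reads outside the listed genes, the nuclear-encoded mean was 0.601% in the scrambled pulldowns against 0.868% in their inputs, and 0.945% in the miR-29b pulldowns against 0.948% in theirs.

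**Figure D1:**
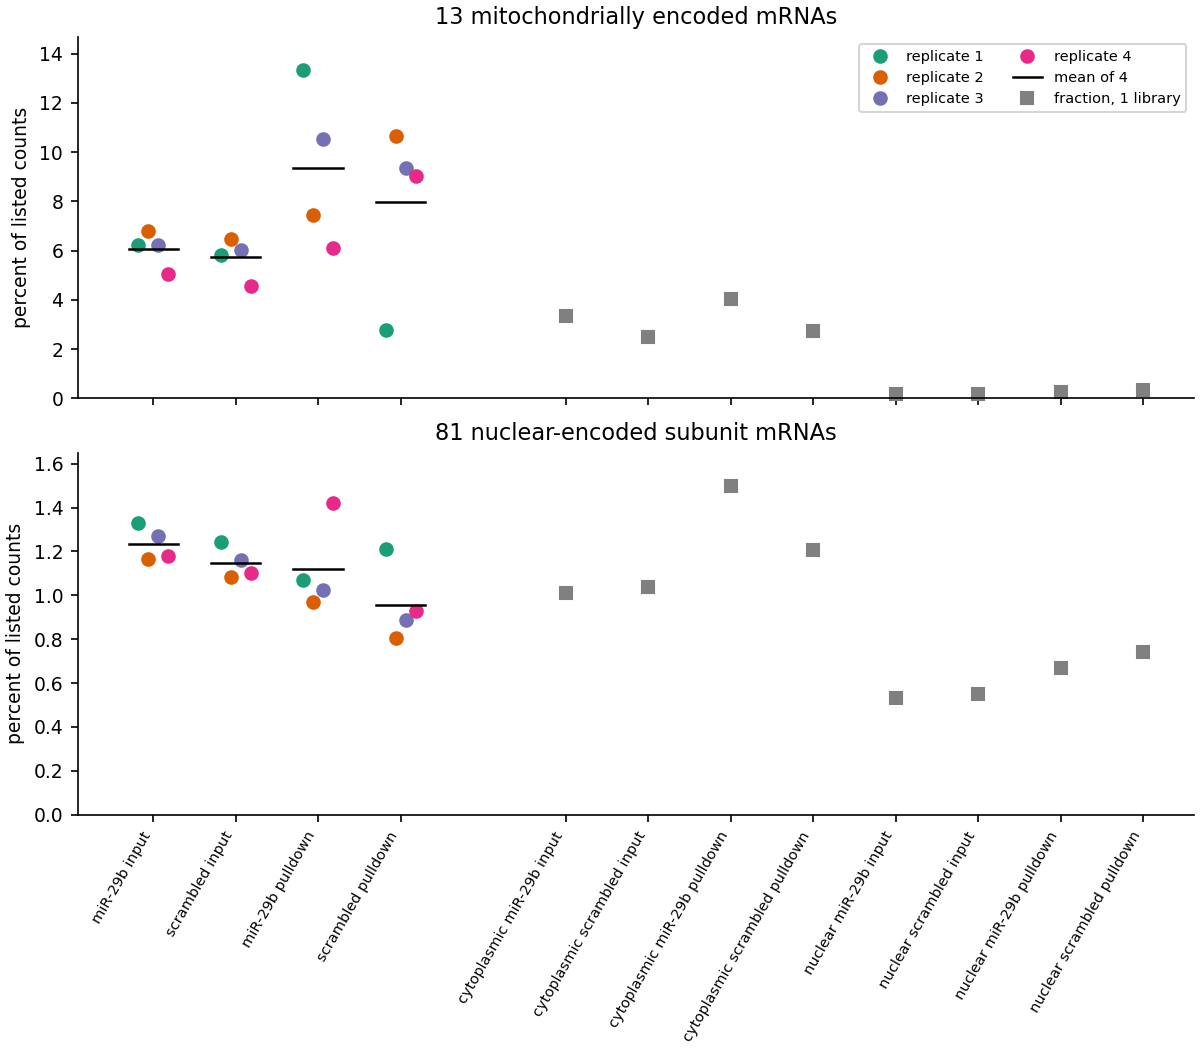
Percent of listed counts taken by the 13 mitochondrially encoded mRNAs (upper) and the 81 nuclear-encoded subunit mRNAs (lower) in each library; circles are whole-cell replicates 1 to 4, bars their means and squares single fraction libraries. Mitochondrially encoded shares range from 2.78% to 13.4% across whole-cell pulldowns, and lie between 0.176% and 0.344% in nuclear fractions. Fraction shares are of the counts over 11568 listed genes, against 13534 for whole cells.

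Recovery over input was first taken for each mimic on its own. More nuclear-encoded subunit mRNAs fell than rose from input to recovered RNA, with either mimic. With miR-29b, 43 of 80 tested fell and 7 rose (edgeR quasi-likelihood test with Benjamini-Hochberg adjustment over 12915 genes, threshold 0.05), where 23.2% of all genes fell and 28.4% rose. Their median log2 change was -0.65, against -0.03 over all genes. With the scrambled mimic 38 of 80 fell and 1, Cox7b, rose (by 0.89, a call lost without any of replicates 1 to 3 of the scrambled input or 2 to 4 of the scrambled pulldown), where 17.4% of all genes fell and 18.5% rose, and the median was -0.52 against 0.03. Of the mRNAs that fell, 25 fell with both mimics, which is 58.1% of those that fell with miR-29b and 65.8% of those that fell with the scrambled mimic. Without replicate 1 of the scrambled pulldown, 53 fell and 1 rose with the scrambled mimic, at a median of -0.76, where 19.4% of all genes fell and 18.1% rose. In that run 46 fell and 8 rose with miR-29b, where 23.8% and 29.2% of all genes did. With miR-29b the split of calls was 28 lower to 10 higher when libraries were scaled by the authors' totals and 52 to 2 with upper-quartile factors, so the lower calls outnumbered the higher under each scaling.

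Lower calls outnumbered higher ones in every complex with both mimics, and no test sets one complex apart. Of the 37 tested nuclear-encoded mRNAs of complex I, 23 fell and 2 rose with miR-29b, and 18 fell and 0 rose with the scrambled mimic (27 fell without its replicate 1). Ndufs5 and Ndufc2, accessory subunits, fell by 1.29 on the log2 scale with miR-29b, and Ndufb6 and Ndufa6, also accessory, fell by 1.32 and 1.24 with the scrambled mimic. In complex IV, 8 of 13 fell with miR-29b and 6 of 13 with the scrambled mimic (7 of 13 without its replicate 1). Cox4i1, which encodes a regulatory subunit, was at 613, 503, 556 and 597 CPM in the miR-29b inputs and 332, 211, 265 and 294 CPM in the miR-29b pulldowns. These groups did not overlap, and the log2 change was -1.04 ± 0.23 (SE; edgeR adjusted p = 0.0012). In complex II 2 of 4 fell with miR-29b and 3 of 4 with the scrambled mimic, with or without its replicate 1. Sdhb, the iron-sulfur subunit, was at 91.3 to 105 CPM in the miR-29b inputs and 41.3 to 62.1 CPM in the miR-29b pulldowns, and fell by 0.92 with miR-29b and by 1.15 with the scrambled mimic. In complex V, 6 of 18 fell and 4 rose with miR-29b, and 8 fell and 0 rose with the scrambled mimic (13 fell without its replicate 1). In complex III 4 of 8 fell and 1 rose with miR-29b, and 3 of 8 fell with the scrambled mimic, with or without that library.

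The mitochondrially encoded mRNAs did not follow the nuclear-encoded ones. With miR-29b 1 of 13, mt-Nd3, rose and 0 fell, at a median of 0.24, and with the scrambled mimic 0 of 13 passed in either direction, at a median of 0.02 (edgeR; 2 and 0 at an unadjusted p under 0.05, and 2 and 0 called by DESeq2). mt-Nd3 was lost when any of replicates 1 to 3 of the miR-29b input, replicate 3 of the scrambled input, or replicate 1 or 4 of the miR-29b pulldown was left out. Without replicate 1 of the scrambled pulldown, 2 of 13 passed with miR-29b and 1 of 13 with the scrambled mimic. A missed threshold here goes with a wide spread between pulldown libraries, with standard errors of 0.26 to 0.46 for the change with miR-29b, so equal levels are not shown.

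**Figure D2:**
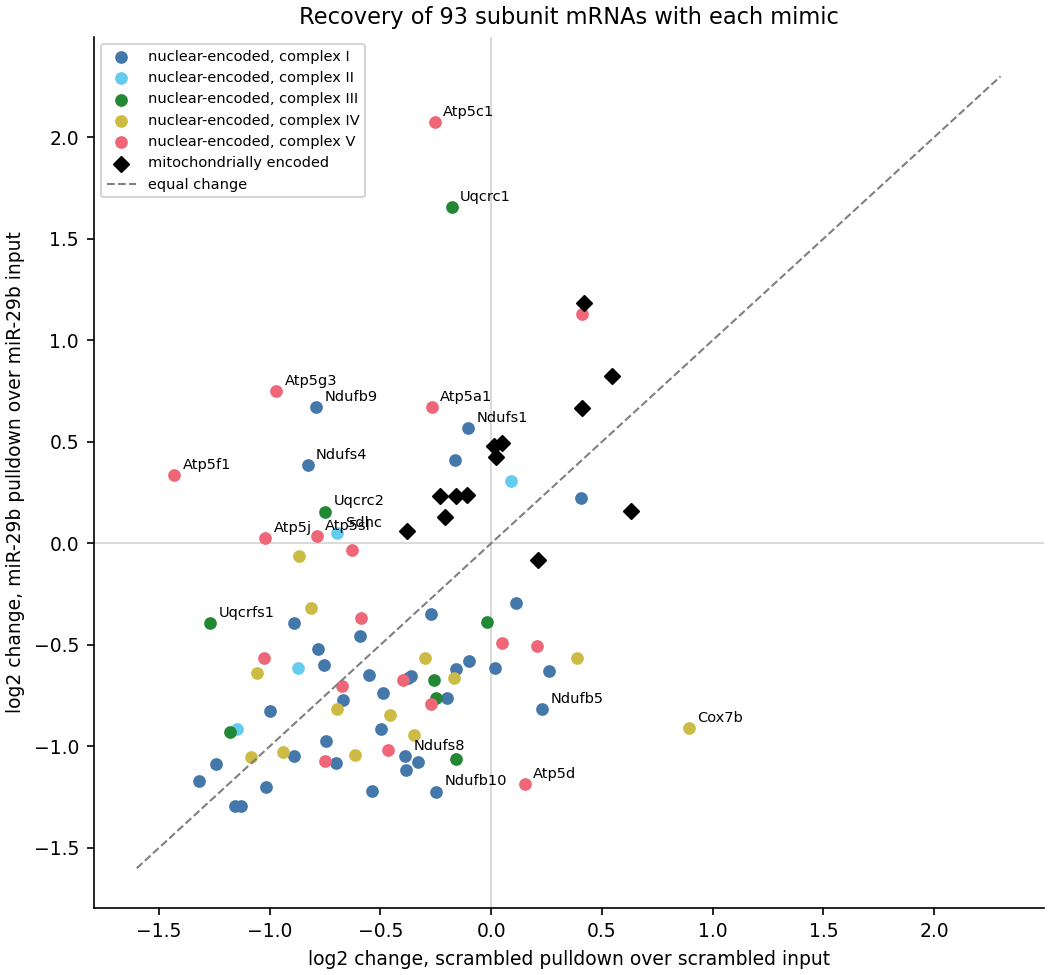
Log2 change from input to pulldown of the 93 tested subunit mRNAs, with the scrambled mimic (x) and the miR-29b mimic (y); colours mark the complex, diamonds the mitochondrially encoded mRNAs and the dashed line equal change. Named points passed the threshold in the mimic-specific comparison; most circles lie below 0 on both axes, and Atp5c1 lies at 2.08 with miR-29b and -0.26 with the scrambled mimic.

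The mimic-specific comparison takes the recovery with miR-29b minus the recovery with the scrambled mimic. Here 13 of 80 nuclear-encoded mRNAs rose and 5 fell, and 0 of 13 mitochondrially encoded mRNAs passed in either direction (0 at an unadjusted p under 0.05, and 0 called by DESeq2). Over all genes 17% rose and 9.21% fell, so the share of subunit mRNAs called was near the background. In simulated counts, where far fewer genes changed than were called here, this comparison recovered 12% of 2-fold changes. That share need not hold for these data, but a missed threshold does not show equal recovery. The medians were -0.15 for nuclear-encoded and 0.39 for mitochondrially encoded mRNAs, against -0.10 over all genes. Without replicate 1 of the scrambled pulldown they were 0.10 and 0.20, against 0.00 over all genes, so the nuclear-encoded median changed sign. The split of higher to lower nuclear-encoded calls depended on the scaling: it was 6 to 10 with upper-quartile factors, which put the median of all genes at -0.39, and 17 to 2 with the authors' totals, which put it at 0.21. Without replicate 1 of the scrambled pulldown it was 17 to 5, where 17.6% of all genes rose and 9.31% fell. Among replicates 1 to 3 it was 15 to 9, and without replicate 1 of the scrambled pulldown as well it was 22 to 10, an alternative chosen after seeing the data; replicate 4 alone has 1 library a group and no test.

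Of the 13 mRNAs that rose, 6 carry Atp5 symbols: among all 18 tested with such symbols 6 rose and 1 fell, and 5 rose and 1 fell among the 15 left without Atp5s, Atp5sl and Atp5l-ps1. These counts were the same without replicate 1 of the scrambled pulldown. Atp5c1 (chromosome 2, 10056030 to 10080510 in GRCm38.p6) encodes the gamma subunit, the central shaft that turns inside the catalytic head. Its level was 188, 171, 177 and 326 CPM in the miR-29b inputs, 198, 180, 188 and 175 CPM in the scrambled inputs, 877, 872, 882 and 998 CPM in the miR-29b pulldowns, and 178, 144, 148 and 150 CPM in the scrambled pulldowns. Every miR-29b pulldown lay above every other library, and replicates 2 to 4 of the scrambled pulldown lay below every input. The mimic-specific log2 change was 2.33 ± 0.27 (SE; edgeR adjusted p = 1.97e-05), or 2.44 with the first scrambled pulldown left out. Atp5c1 was the 1 subunit mRNA among the authors' 567 positive hits, with an authors' deposited table score, called PE, of 5.98 ± 0.513 as its mean and SD over the lysed replicates. The authors' table marks no predicted miR-29 site for it. Their table marks 509 genes with such a site, and Atp5g1 is the 1 subunit among them. Besides Atp5c1, other subunit mRNAs that are not positive hits carry the authors' marks for single replicates. By the column names, mt-Nd4, mt-Nd4l, mt-Nd5, mt-Cytb, mt-Co1 and Uqcrc1 were significant in at least 1 lysed replicate. mt-Nd3, Atp5g3 and Atp5k were marked so in the intact replicate.

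Atp5f1 (chromosome 3, 105942698 to 105959263), listed in RefSeq as Atp5pb, encodes the peripheral stalk subunit b. It stood at 245, 236, 241 and 210 CPM in the miR-29b pulldowns and 54.7, 55.5, 54.7 and 55.6 CPM in the scrambled pulldowns, with inputs of 173 to 191 and 144 to 154 CPM for the respective mimics. The pulldown groups did not overlap, and the scrambled pulldowns were below all their inputs. Its mimic-specific change of 1.77 ± 0.16 (1.81 with the first scrambled pulldown left out) combined a rise of 0.34 with miR-29b and a fall of 1.43 with the scrambled mimic. Atp5g3, a gene for the membrane ring subunit c, was at 628, 587, 626 and 1200 CPM in the miR-29b pulldowns and 242, 168, 183 and 199 CPM in the scrambled pulldowns, for a change of 1.72 ± 0.34 (1.89 without the first scrambled pulldown). Replicate 4 was the high library of that group, and without it Atp5g3 kept its call. Atp5g1, another gene for the same subunit c protein, was lower in both pulldowns than in the inputs: its log2 change was -0.57 with miR-29b and -1.02 with the scrambled mimic, and it did not pass in the mimic-specific comparison. The call with miR-29b was lost when the fourth miR-29b input was left out (-0.39, adjusted p = 0.062 by edgeR), with the authors' totals (-0.26) and with only the groups compared (-0.63). Atp5j, Atp5a1 and Atp5sl rose by 1.05, 0.94 and 0.82.

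Atp5d, the delta subunit of the central stalk, fell. It was at 206, 142, 172 and 139 CPM in the miR-29b pulldowns and 632, 261, 310 and 302 CPM in the scrambled pulldowns, where inputs were 314 to 398 CPM. The miR-29b pulldowns lay below all inputs, and replicate 1 of the scrambled pulldown lay above them. The log2 change was -1.34 ± 0.33 (SE; adjusted p = 0.00745 by edgeR). Leaving out that library gave -0.92 with an adjusted p of 0.00445.

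In complex III, 3 of 8 nuclear-encoded mRNAs rose. Uqcrc1 (chromosome 9, 108936648 to 108949641), a core subunit, was at 194, 357, 284 and 108 CPM in the miR-29b pulldowns and 76.6, 59.3, 61.2 and 65.0 CPM in the scrambled pulldowns, with inputs of 50.5 to 88.7 CPM. All miR-29b pulldowns lay above all other libraries, by least in replicate 4. The change was 1.83 ± 0.41 (SE; edgeR adjusted p = 0.00375), or 1.96 with the first scrambled pulldown left out. Uqcrc2, the other core subunit, and Uqcrfs1, the Rieske iron-sulfur protein, rose by 0.91 and 0.87. For Uqcrfs1 the miR-29b pulldowns, at 84.7, 62.0, 72.2 and 87.6 CPM, overlapped their inputs of 85.2 to 106 CPM at the low end, while the scrambled pulldowns were at 35.6 to 43.9 CPM.

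In complex I 3 of 37 rose and 3 fell, which is 8.11% in each direction, below the 17% and near the 9.21% of all genes. The counts were 5 and 3 without replicate 1 of the scrambled pulldown. Ndufb9, an accessory subunit, was at 464, 515, 485 and 332 CPM in the miR-29b pulldowns and 203, 133, 140 and 147 CPM in the scrambled pulldowns, with inputs of 250 to 312 CPM, for a change of 1.46 ± 0.25 (1.66 without the first scrambled pulldown). Ndufs4, which is mutated in inherited complex I deficiency, was at 55.1, 63.7, 57.9 and 52.8 CPM against 41.7, 19.9, 22.7 and 23.4 CPM, for a change of 1.21 ± 0.27. Replicate 1 was the high scrambled pulldown for Ndufs4, and without it the change was 1.54. Neither pair of pulldown groups overlapped. Ndufs1, the large iron-sulfur subunit, rose by 0.67 (edgeR adjusted p = 0.0464). Leaving out single libraries ended that call. It was lost without replicate 2 or 3 of the scrambled input, without replicate 1, 3 or 4 of the miR-29b pulldown, and without replicate 2, 3 or 4 of the scrambled pulldown. Ndufb5, Ndufb10 and Ndufs8 fell by 1.05, 0.97 and 0.66. Ndufb5 was at 66.8, 55.1, 60.8 and 85.3 CPM in the miR-29b pulldowns and 135, 128, 119 and 117 CPM in the scrambled pulldowns.

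Complexes II and IV gave 1 call each, and without replicate 1 of the scrambled pulldown 1 and 3. Sdhc, a membrane anchor of succinate dehydrogenase, rose by 0.74 ± 0.18. It was at 135, 123, 129 and 102 CPM in the miR-29b pulldowns, within or near the range of its inputs of 108 to 132 CPM, and at 50.0, 57.5, 56.4 and 51.6 CPM in the scrambled pulldowns. Sdha, Sdhb and Sdhd did not pass. Cox7b (X chromosome, 106015700 to 106022450), a small cytochrome c oxidase subunit, had the lowest value. It was at 109, 65.7, 87.0 and 166 CPM in the miR-29b pulldowns and 193, 360, 363 and 383 CPM in the scrambled pulldowns, with inputs of 142 to 248 CPM. The groups did not overlap, and the scrambled pulldowns of replicates 2 to 4 lay above all inputs. The change was -1.80 ± 0.40 (SE; adjusted p = 0.00358 by edgeR), or -1.93 with the first scrambled pulldown left out.

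**Figure D3:**
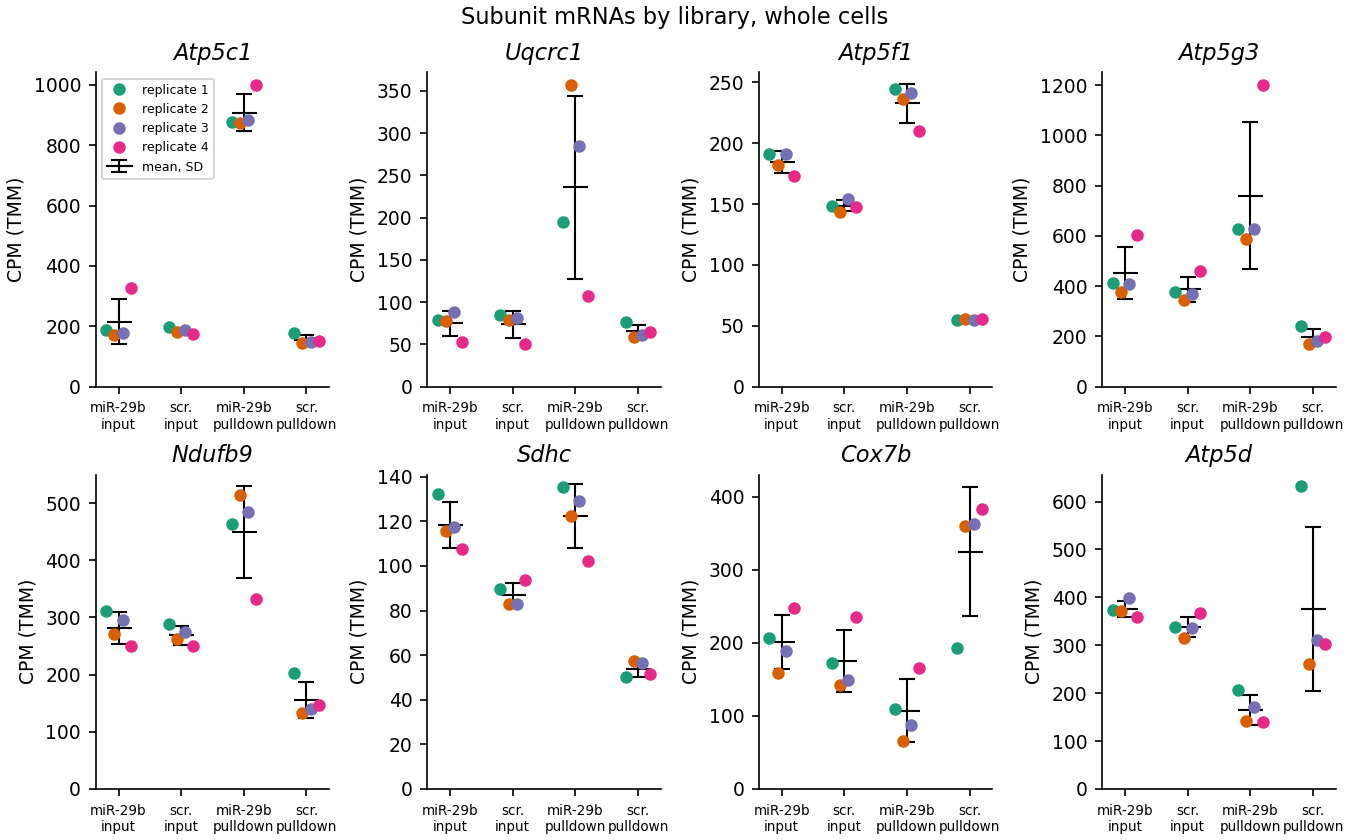
Level in CPM after TMM scaling of 8 subunit mRNAs in the 16 whole-cell libraries; points are replicates 1 to 4, with bars for the mean and SD of each group. Atp5c1 reaches 872 to 998 CPM in the miR-29b pulldowns, and Cox7b is highest in the scrambled pulldowns of replicates 2 to 4.

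Of these 18 calls, 8 held under each of the alternative settings and left-out libraries: Atp5c1, Atp5f1, Atp5g3, Uqcrc1, Ndufb9 and Ndufs4 higher, and Atp5d and Cox7b lower. With upper-quartile factors Atp5a1, Atp5j, Atp5sl, Ndufs1, Sdhc, Uqcrc2 and Uqcrfs1 no longer passed. With the authors' totals Ndufb5, Ndufb10 and Ndufs8 no longer passed. Atp5j was also lost without replicate 1, 2 or 3 of the miR-29b input, without replicate 4 of the scrambled input, and without replicate 2, 3 or 4 of the scrambled pulldown. Uqcrc2 was lost without replicate 1 of the miR-29b pulldown or replicate 3 or 4 of the scrambled pulldown. Ndufs8 was lost without replicate 1 of the miR-29b input or replicate 2 of the scrambled input.

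Comparing the pulldowns directly, without the inputs, 19 of 80 nuclear-encoded mRNAs rose and 11 fell, where 24.5% and 20.9% of all genes did. The counts were 24 and 6 without replicate 1 of the scrambled pulldown, where 24.7% and 19.2% of all genes rose and fell. This comparison shares its pulldown libraries with the mimic-specific one. Of the 13 mitochondrially encoded mRNAs 3, mt-Nd1, mt-Nd3 and mt-Co3, rose and 0 fell. mt-Nd1, a membrane subunit of complex I, was at 16992, 8626, 12780 and 8869 CPM in the miR-29b pulldowns and 3956, 9198, 8091 and 7642 CPM in the scrambled pulldowns. The groups overlapped, and replicate 1 was the highest and the lowest library respectively. Its log2 change was 0.71 (adjusted p = 0.0353 by edgeR), or 0.54 (adjusted p = 0.0639) with the first scrambled pulldown left out. mt-Nd3 was at 45.2, 15.7, 26.6 and 62.2 CPM against 30.4, 10.4, 12.2 and 12.7 CPM, for a change of 1.21 ± 0.46, and 1.71 without that library. mt-Nd3 encodes a small membrane subunit of complex I. mt-Co3, a core subunit of complex IV, changed by 1.00, with an adjusted p of 0.0309, and of 0.0637 without that library. The number of mitochondrially encoded mRNAs called ran from 0, without replicate 1 of the miR-29b pulldown, to 6, without replicate 2 of it. It was 1 without any one of the 4 scrambled pulldowns, 2 without replicate 3 or 4 of the miR-29b pulldown, replicate 1 of the miR-29b input or replicate 3 of the scrambled input, and 6 among replicates 1 to 3. With upper-quartile factors it was 0.

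The most abundant mitochondrially encoded mRNAs, mt-Cytb and mt-Co1, spread further between pulldown libraries of a group than between inputs. mt-Cytb, the single mitochondrially encoded subunit of complex III, was at 31511, 17895, 24553 and 14443 CPM in the miR-29b pulldowns and 5570, 17639, 15957 and 15980 CPM in the scrambled pulldowns, with inputs of 12871 to 18047 CPM. mt-Co1, the catalytic subunit of complex IV, was at 43643, 22302, 33048 and 17695 CPM against 9620, 40222, 34780 and 31364 CPM. For both mRNAs replicate 1 was the highest library with miR-29b and the lowest with the scrambled mimic. mt-Nd6, encoded on the other strand from the rest, was at 95.7, 56.8, 78.0 and 20.2 CPM in the miR-29b pulldowns, lowest in replicate 4. The inputs of replicate 4 were also its lowest, at 25.7 CPM with miR-29b and 32.2 CPM with the scrambled mimic. The scrambled pulldowns went otherwise, at 65.6, 114, 90.9 and 93.6 CPM, lowest in replicate 1.

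Per kilobase of gene in the scrambled inputs, the levels ran from 12870 ± 3074 CPM per kb for mt-Co1 and 11860 ± 682 CPM per kb for mt-Cytb (SD, n = 4) down to 113 ± 39.7 CPM per kb for mt-Nd6 and 34.6 ± 15.8 CPM per kb for mt-Nd3. mt-Co1 and mt-Cytb did not differ beyond their spread, nor did mt-Atp6 (623 ± 236) and mt-Co2 (586 ± 252), or mt-Atp8 (204 ± 101) and mt-Nd4l (201 ± 89.5). In the scrambled pulldowns mt-Nd6 stood at 175 ± 38.3 CPM per kb. Counts of mt-Atp8 and mt-Atp6, and of mt-Nd4l and mt-Nd4, come from overlapping genes. So do those of mt-Nd5 and mt-Nd6, which lie on opposite strands, with the strand setting not given. The division of counts within each of these pairs is therefore uncertain. Nuclear copies of mitochondrial DNA add to the uncertainty for all 13, and need not do so equally. In the scrambled inputs the neighbours from mt-Co2 to mt-Nd4l (7013 to 10173) stood at 34.6 to 623 CPM per kb. On either side, mt-Nd1, mt-Nd2, mt-Co1, mt-Nd4, mt-Nd5 and mt-Cytb stood at 3295 to 12870 CPM per kb. Whether nuclear copies take reads from the stretch of mt-Co2 to mt-Nd4l, which holds mt-Nd3 and mt-Co3, was not tested. The order of levels may therefore not be that of the RNAs.

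**Figure D4:**
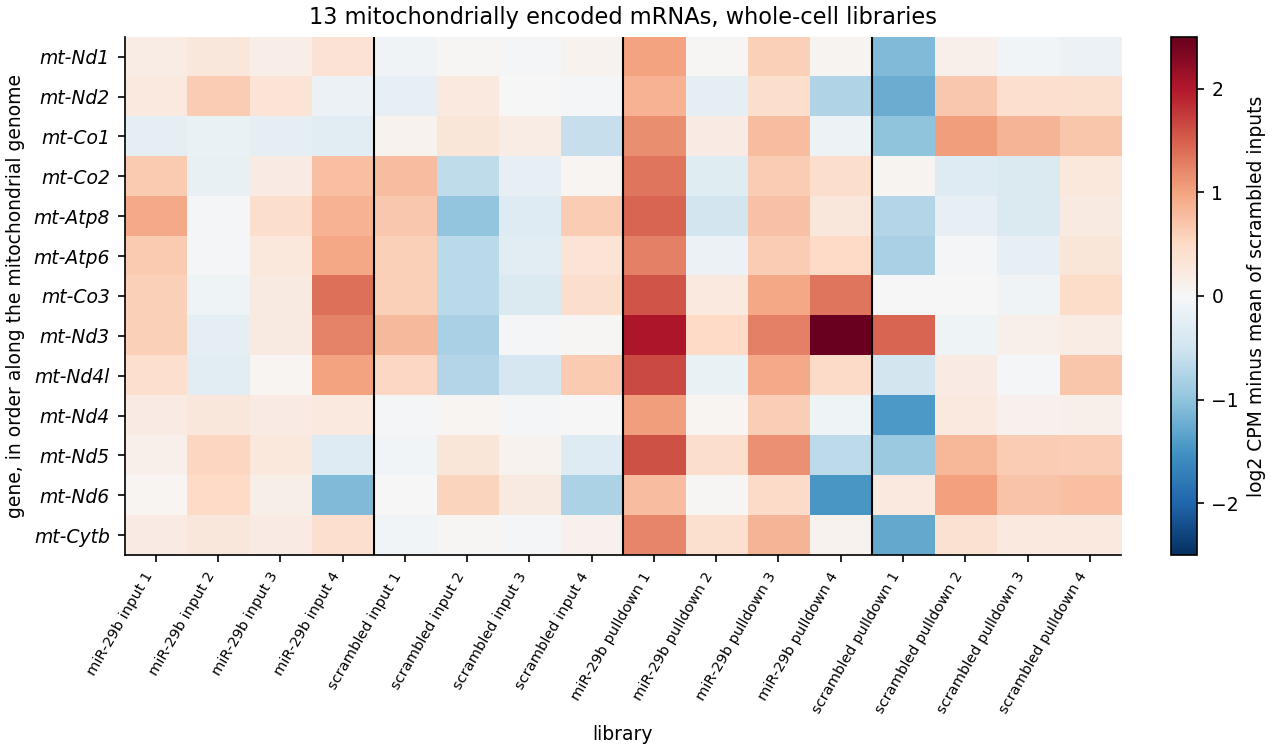
Log2 CPM of each of the 13 mitochondrially encoded mRNAs minus its mean in the scrambled inputs, by whole-cell library, with genes in their order along the mitochondrial genome; red is higher and blue lower, and lines separate the groups. Replicate 1 of the miR-29b pulldown is above the scrambled inputs for all 13 mRNAs, and in replicate 1 of the scrambled pulldown mt-Cytb, at 5570 CPM, is below them.

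The inputs compare the RNA of cells that had received one mimic or the other. There 0 of 80 nuclear-encoded and 0 of 13 mitochondrially encoded mRNAs passed in either direction with edgeR, where 0.0542% of all genes rose and 0% fell. At an unadjusted p under 0.05 there were 3 nuclear-encoded and 0 mitochondrially encoded mRNAs, which is 3.75% of the nuclear-encoded mRNAs against 4.68% of all genes. DESeq2 called 3 nuclear-encoded mRNAs higher, where it called 0.264% of all genes. Among the latter was Sdhc, at 132, 116, 117 and 108 CPM with miR-29b and 89.6, 82.8, 82.9 and 93.5 CPM with the scrambled mimic. The groups did not overlap. The medians were 0.12 for nuclear-encoded and 0.28 for mitochondrially encoded mRNAs, against 0.02 over all genes.

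The fractions separated both classes from the average gene. Each value here is a log2 ratio of 1 library to another, with no replicate and no test. In the inputs the mitochondrially encoded mRNAs were lower in the nuclear than in the cytoplasmic fraction by more than 2-fold in 13 of 13, at medians of -4.92 with miR-29b and -4.16 with the scrambled mimic. Over all genes 25.9% and 24% were that much lower, and 25.1% and 23.8% that much higher. mt-Cytb was at 10257 CPM in the cytoplasmic and 237 CPM in the nuclear miR-29b input. The mitochondrial rRNAs mt-Rnr1 and mt-Rnr2 gave -4.33 and -5.28 in the miR-29b input, and Malat1 and Neat1, which are nuclear RNAs, gave 7.58 and 6.68. Of the 79 nuclear-encoded mRNAs 66 and 67 were more than 2-fold lower, at medians of -2.06 and -1.80 against 0.01 for all genes, and 1 was higher: Atp5s, at 1.36 and 1.24. Ndufs1 (0.75 and 0.78) and Sdha (0.40 and 0.39) were also above 0 in both inputs. Without TMM factors, which put the median of all genes at 0.70 and 0.56, the counts were 55 and 50 lower, and 13 of 13 mitochondrially encoded mRNAs remained lower. Counts past 2-fold higher, and the shares of all genes, are not given for that scaling. The count of 1 higher thus stands for the TMM scaling only.

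**Figure D5:**
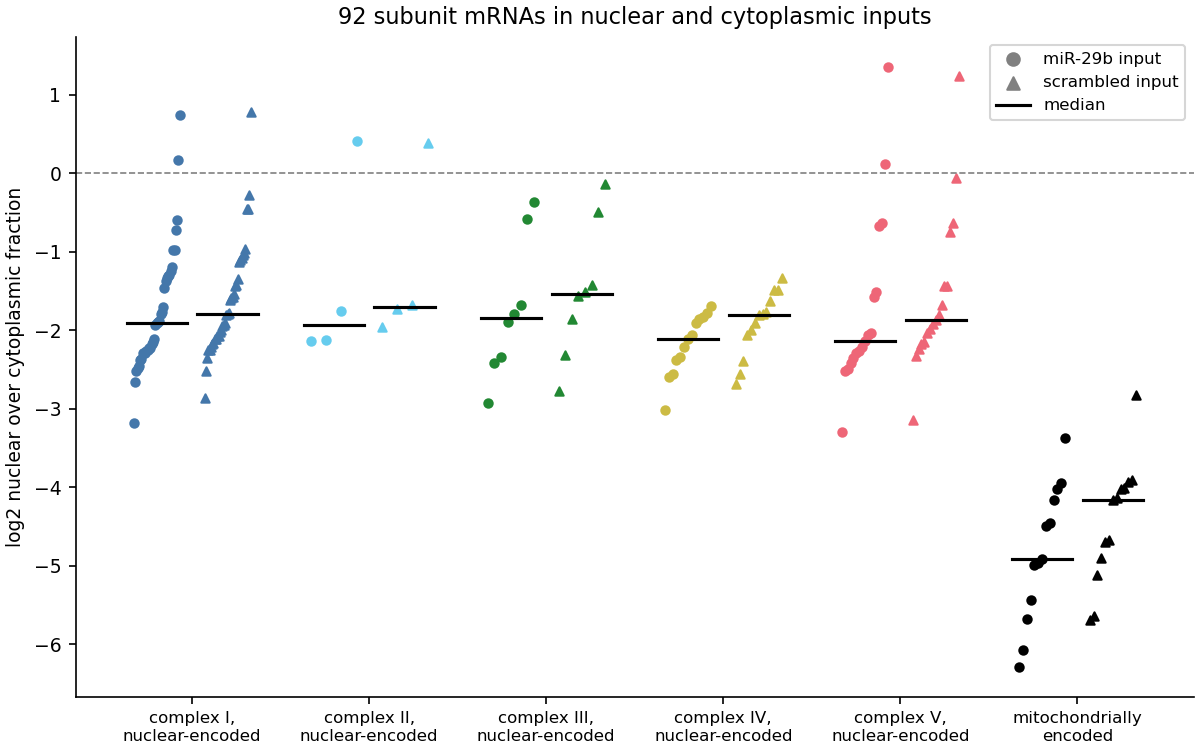
Log2 ratio of nuclear to cytoplasmic fraction of 92 subunit mRNAs in the miR-29b input (circles) and scrambled input (triangles), by complex and genome; bars are medians, and each point is 1 library over 1 other. All 13 mitochondrially encoded mRNAs lie below every nuclear-encoded median.

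In the fractions the medians of both classes lay above input, unlike those of the nuclear-encoded mRNAs in whole cells. In the cytoplasmic fraction their median log2 pulldown over input was 1.04 with miR-29b and 0.41 with the scrambled mimic, and in the nuclear fraction it was 0.64 and 0.59, where the medians of all genes lay between -0.03 and 0. Without TMM factors, an alternative chosen after seeing the data, the medians stayed above 0, at 0.62, 0.13, 0.48 and 0.48, where all genes gave -0.41, -0.28, -0.18 and -0.14. In whole cells the same medians were -0.65 and -0.52. The mitochondrially encoded mRNAs had medians of 0.52 and 0.48 in the cytoplasmic fraction and 0.76 and 1.33 in the nuclear fraction, where 13 of 13 were above 0 with each mimic, against 0.24 and 0.02 in whole cells. Some of them were near the floor in the nuclear inputs. With miR-29b and the scrambled mimic, mt-Nd3 was at 0.07 and 0 CPM there, and mt-Atp8 at 0.35 and 0.42 CPM. The nuclear ratios of such mRNAs depend strongly on the prior count. The cytoplasmic scrambled pulldown is the library that matched replicate 1 of the whole cells, so its values are not a repeat of theirs. Of the 13 mRNAs called higher in the mimic-specific comparison of whole cells, the cytoplasmic mimic-specific value was above 0 in 13 and past 2-fold in 8, where 19.3% of all genes were past 2-fold higher. The 2 comparisons share that library's counts, so this is no independent check. Among all 79 nuclear-encoded mRNAs 65 were above 0 and 24 past 2-fold, and the median of all genes was 0.035. Without TMM factors the 13 gave 12 above 0 and 8 past 2-fold. Atp5c1 was at 1.66, Atp5f1 at 1.76 and Atp5g3 at 1.53, while Uqcrc1 was at 0.31. In the nuclear fraction, which shares no library with the whole-cell comparison, 10 of the 13 were above 0 (9 without TMM factors) and 0 were past 2-fold, where 1.83% of all genes were. Among all 79 nuclear-encoded mRNAs 31 were above 0, and the median of all genes was -0.004. There Atp5c1 was at 0.39, and the 13 lay between -0.35 and 0.48. Of the 5 mRNAs called lower, 2 were below 0 in the cytoplasmic and 3 in the nuclear fraction. Cox7b, lowest in whole cells, was at 0.43 and -0.02. The share of all genes above or below 0 was not taken in either fraction.

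Recovery over input was also taken for lists of other nuclear genes of the organelle, with no test between lists. Over all genes 23.2% fell and 28.4% rose with miR-29b, and 17.4% fell and 18.5% rose with the scrambled mimic. Without replicate 1 of the scrambled pulldown the latter were 19.4% and 18.1%. Some lists lay near these shares, given below lower first. Of 77 mitochondrial ribosomal protein mRNAs, 53 fell and 6 rose with miR-29b (68.8% and 7.79%). With the scrambled mimic 49 fell and 0 rose (63.6% and 0%, and 54 fell without its replicate 1). Of 40 assembly factor mRNAs, 22 fell and 5 rose with miR-29b (55% and 12.5%). With the scrambled mimic 16 fell and 3 rose (40% and 7.5%, and 18 and 2 mRNAs without its replicate 1). Cycs and Cyc1, for cytochrome c and cytochrome c1, fell with both mimics. Of 13 TCA cycle mRNAs 4 fell and 5 rose with miR-29b (30.8% and 38.5%), and 6 fell and 1 rose with the scrambled mimic (46.2% and 7.69%). Of 21 mRNAs for mitochondrial transcription, RNA stability and replication 4 fell and 4 rose (19% and 19%), and then 6 fell and 3 rose (28.6% and 14.3%). Of 11 coenzyme Q mRNAs 3 fell and 3 rose (27.3% and 27.3%), and then 3 fell and 0 rose (27.3% and 0%). Of 7 biogenesis regulators 1 fell and 3 rose (14.3% and 42.9%), and then 0 fell and 1 rose (0% and 14.3%). Without replicate 1 of the scrambled pulldown the scrambled counts of these 4 lists were 6 and 1, 8 and 3, 4 and 0, and 0 and 2, lower first.

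In the mimic-specific comparison, where 17% of all genes rose and 9.21% fell, 5 of 40 assembly factor mRNAs rose and 4 fell (12.5% and 10%), and of the 77 in the ribosomal list 8 rose and 3 fell (10.4% and 3.9%). These were 7 and 3, and 12 and 3, without replicate 1 of the scrambled pulldown. Cox11, a copper chaperone for complex IV, was at 43.0 ± 7.89 CPM in the miR-29b pulldowns and 3.21 ± 0.543 CPM in the scrambled pulldowns (SD, n = 4), for a change of 3.23 ± 0.32 (SE; edgeR adjusted p = 4.9e-06), above that of any subunit. Cox10, which makes heme for complex IV, rose by 1.44, and Ndufaf2, a complex I assembly factor, fell by 1.51. Among the TCA cycle mRNAs 6 of 13 rose and 0 fell (46.2% and 0%), or 7 and 1 without replicate 1 of the scrambled pulldown, with Fh1 (fumarase) at 2.09 and the succinyl-CoA ligase subunits Sucla2 and Suclg2 at 2.02 and 1.95. Of the coenzyme Q mRNAs 3 of 11 rose and 0 fell (27.3% and 0%), of the biogenesis regulators 2 of 7 rose and 1 fell (28.6% and 14.3%), and of the mRNAs for transcription, RNA stability and replication 3 of 21 rose and 1 fell (14.3% and 4.76%). Without that library the biogenesis regulators gave 3 and 1, and the counts of the coenzyme Q and transcription lists were the same.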

How the data were processed

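RNA of NIH3T3 cells was sequenced in 24 libraries. Reads were processed with STAR 2.3.0 and mm10, per the submitters' processing notes; for the counting tool and its strand setting the sources used here give nothing. The authors deposited a raw count per gene and library, and CPM values that equal the count plus 1, scaled to a library total above the listed counts. They also deposited a score per gene and replicate called PE, of unstated formula. Listed counts were 48.9% to 87.3% of those totals in whole cells. Both fractions were read from a single table, since the nuclear and cytoplasmic files were the same. Genes repeated on further lines (518 lines) were used once.

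The test was edgeR's (4.0.16, R 4.3.3; filterByExpr, TMM, quasi-likelihood test, 2-sided) in 1 model of group means over 16 libraries. Of 13534 genes 12915 were tested, 93 of the 94 subunit genes among them (Ndufa4l2 was not). P-values were adjusted by Benjamini-Hochberg over all genes in each of 5 comparisons. Fraction ratios used a prior count of 5 and genes with at least 20 counts over the 8 libraries. The script was tested on simulated counts of 12790 genes, with 1 spread (dispersion 0.106) for all genes. Of these, 100 genes changed 2-fold and 100 changed 4-fold, far fewer than were called in the data. The shares recovered need therefore not hold for the data. In the mimic-specific comparison the script recovered 12% of 2-fold and 67% of 4-fold changes. For miR-29b against scrambled pulldown these were 24% and 99%, and for miR-29b pulldown against input 27% and 97%. Named were all 13 mitochondrial genes, per complex the extreme members called with at least 5 CPM, up to 12 called in each direction in the mimic-specific comparison, fixed members, fraction extremes, and up to 3 genes of each other list. The members and lists were chosen with earlier results of these data known. Same-numbered libraries deviated together between inputs (correlations 0.506 to 0.717) and between miR-29b pulldown and input (0.379 to 0.700), but not throughout where the scrambled pulldown took part (as low as -0.069).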

Additional observations from a re-analysis of the deposited data

Results flagged for a closer look

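In 12 of 116 groups of 4 libraries, 1 library stood far from the others by Dixon's test; chance gives this in about 1 group in 20. Replicate 4 was that library in 10 of the 12. It was high for Atp5c1 in the miR-29b input (326 CPM) and pulldown (998 CPM), for Atp5g3 in the miR-29b pulldown (1200 CPM) and for Atp5g1 in the scrambled input (159.9 CPM). It was low for Uqcrc1 (50.5 CPM), Ndufs1 (19.8 CPM) and Uqcrc2 (46.9 CPM) in the scrambled input, for Uqcrfs1 (85.2 CPM) and Uqcrc2 (47.9 CPM) in the miR-29b input, and for Ndufb8 in the miR-29b pulldown (46.7 CPM). The table headers call this replicate intact and the others lysed. In the scrambled pulldown, however, replicate 4 lay close to replicate 3 (mean chi-square 8.07) and replicate 2 (37.6). In the other whole-cell groups its lowest value against replicates 1 to 3 was 236. Replicate 1 of the scrambled pulldown was the low library for mt-Cytb (5570 CPM) and Cox7b (193 CPM).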

How the results depend on the processing

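No log2 change of a named gene that was called changed sign under any alternative run, and 8 of the 18 mimic-specific calls passed under all of them. The count of nuclear-encoded mRNAs called in the mimic-specific comparison moved from 18 to 32 among replicates 1 to 3 without replicate 1 of the scrambled pulldown, an alternative chosen after seeing the data, and was 15 to 22 with 1 library left out. Under that alternative the scrambled pulldown against its input gave 66 in place of 39 nuclear-encoded and 3 in place of 0 mitochondrially encoded calls (29 to 54 and 0 to 1 with 1 library left out). For the mitochondrially encoded mRNAs, miR-29b against scrambled pulldown gave 3 calls, and 0 with upper-quartile factors, 6 with the authors' totals, 1 with only the groups compared, 6 among replicates 1 to 3, and 0 to 6 with 1 library left out. The miR-29b pulldown against its input gave 1, and 0 with upper-quartile factors or only the groups compared, 2 with the authors' totals, DESeq2 or replicates 1 to 3, 4 under the added alternative, and 0 to 2 with 1 library left out. Between the inputs the nuclear-encoded count of 0 became 3 with DESeq2, 2 among replicates 1 to 3 and 3 under the added alternative. The cause was not tested. With the replicate block, nuclear-encoded calls were 25 in the mimic-specific comparison, 63 for miR-29b recovery and 46 for scrambled recovery; the block added a call for Ndufv1 (0.41, edgeR adjusted p = 0.0345) in miR-29b recovery. Shares of all genes called are given for DESeq2 between the inputs and for the run without replicate 1 of the scrambled pulldown. For the other alternative settings they were not taken. Counts under those settings thus show how member calls moved, and do not set the subunits apart from all genes. The single library per fraction, and the spread of the mitochondrially encoded mRNAs between pulldowns, limit the precision.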
